A study of Mus musculus and Homo sapiens with 22 samples.

Results

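In mouse embryonic stem cells (mESCs) of wild-type (WT) genotype, the m6A load was set beside the abundance of the mRNAs that carry it. The genes were chosen by a mean of at least 10 CPM (counts scaled to the library total) over 3 WT RNA-seq libraries, which left 8719 of the 56196 genes in the count files. They were then split by whether at least 1 m6A site lay in an exon of that gene alone on the same strand. By this split 6005 genes, 68.9% of the 8719, had a site and are called methylated, and 2714 had none and are called unmethylated. Both the CPM minimum and the site list are measured values that chose the genes, so the split itself is a description and carries no test.

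The WT mESCs came from an earlier study and were grown with serum and LIF, without treatment, and both assays used RNA selected for poly(A) tails. The RNA-seq replicates are 3 stranded libraries, which the study describes as matching its miCLIP2 samples. The m6A sites came from miCLIP2, an antibody crosslinking assay that reads m6A at single nucleotides, with 3 biological replicates, the first sequenced as 2 technical repeats. m6Aboost, a classifier trained on WT and Mettl3 knockout mESC peaks, scored each candidate adenosine from 0 to 1, and the deposited list holds the sites of all replicates together, with scores from 0.50 and without read depth. The knockout libraries were not used, so nothing here shows that a given site depends on Mettl3.

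m6A is the most common internal modification of mRNA. It is written during transcription by a complex around METTL3 and METTL14 at adenosines in the DRACH context (D is A, G or T, R is A or G, H is A, C or T), mostly in long internal exons, around stop codons and in 3′ UTRs. It is bound by YTH-domain readers, of which the cytoplasmic YTHDF proteins promote mRNA decay, and in mESCs it marks many transcripts of pluripotency factors.

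The 21 nt around the best-scoring site are shown for the 5 genes with the most sites, the 5 most abundant genes with a site and the 5 with the most sites per kb of exon, because these are the extremes of load and abundance that the results turn on. Capitals mark the 5 nt centred on the methylated A. Coordinates are GRCm38, and all sequences are written 5′ to 3′ on the strand of the gene. All 15 windows hold a DRACH motif, which m6Aboost takes as input. The site of mt-Rnr2 is the first annotated nucleotide of that gene, so the bases before it lie outside mt-Rnr2.

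Kmt2d, CDS, exon 40 of 55, chr15:98843903-98843923, minus strand: aggtgaacGGACAggtggtac
Tnrc6c, CDS, exon 5 of 22, chr11:117723118-117723138, plus strand: ccaggtacAAACTggggggag
Mga, CDS, exon 24 of 24, chr2:119964117-119964137, plus strand: gatctgaaGGACTcaagcata
Rest, CDS, exon 4 of 4, chr5:77282339-77282359, plus strand: tggggaagGAACTatagtatt
Nsd1, CDS, exon 23 of 23, chr13:55313599-55313619, plus strand: gggcacacAAACTttggcaca
mt-Rnr2, rRNA, chrM:1084-1104, plus strand: aacactctGAACTaatcctag
Hsp90ab1, CDS, exon 9 of 11, chr17:45568970-45568990, minus strand: ggtctcagTGACTaaggaggg
Eef2, 3′ UTR, exon 14 of 14, chr10:81182129-81182149, plus strand: acaccttgAGACTgtcccaca
Rpl4, CDS, exon 10 of 10, chr9:64178294-64178314, plus strand: agagaaggGGACTgcagacaa
Ftl1, CDS, exon 4 of 4, chr7:45458229-45458249, minus strand: aggaggtgAAACTcatcaaga
Rpp25l, 3′ UTR, exon 2 of 2, chr4:41712151-41712171, minus strand: gtggggtgGAACTgttaaaaa
Pigyl, CDS, exon 2 of 2, chr9:22158165-22158185, plus strand: ccatctgtGGACAtggatggg
Cldn4, 3′ UTR, single exon, chr5:134945767-134945787, minus strand: gtgactttGGACTctggagtg
Triap1, 3′ UTR, exon 2 of 2, chr5:115343060-115343080, plus strand: acctgggtGAACTatgggagg
Sox2, 3′ UTR, single exon, chr3:34651653-34651673, plus strand: ggggaatcGGACCatgtatag

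The libraries held 22746733 to 24714987 counts in genes, and 8263 of the 8719 genes reached 10 CPM in each of them. All 10 pluripotent cell markers passed the minimum, with a summed level of 4392 to 5064 CPM. Of 10 feeder fibroblast markers 6 were under 1 CPM, among them the collagen genes Col1a2 and Col3a1, and Fbln1 alone passed, at 84.0 to 169 CPM. Col1a1 lay at 0.725 to 1.46 CPM, Thy1 at 1.88 to 2.95 CPM and Pdgfrb at 5.88 to 8.05 CPM. A single noncoding gene, Gm42418, took 18.5%, 11.3% and 20.3% of the counts of libraries 1, 2 and 3, which lowers the CPM and TPM of every other gene in libraries 1 and 3. Ranks within a library are not affected by that share.

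Methylated genes were the more abundant group over the whole range from 10 CPM, but the difference was not seen among genes of at least 20 TPM. TPM, a level scaled to the library after counts are divided by merged exon length, is the only scale on which levels of different genes are compared here. The median level of methylated genes was 26.96, 33.8 and 27.4 TPM in libraries 1, 2 and 3, against 17.0, 22.4 and 16.9 TPM in unmethylated genes. The methylated median was higher in each library, by 0.65 ± 0.05 on the log2 scale (SD, n = 3 libraries), while the quartiles of the groups overlapped, 15.8 to 57.5 TPM against 9.38 to 44.6 TPM on the mean level. When only genes with at least 20 TPM were kept, 5451 in all, 4000 of them had a site, and the median was 44.4 TPM with a site and 44.7 TPM without. The log2 ratio there was -0.0041 ± 0.026, a difference smaller than the spread between libraries. These are bulk samples, in which fewer cells with a transcript and less of it per cell cannot be told apart.

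Ranking the 8719 genes by TPM into 10 equal groups (deciles, 1 the lowest) showed where the share with a site changed. It was 42.2% ± 2.3 in the lowest decile (SD, n = 3 libraries, each library ranked on its own), 57.1% ± 1.4 in decile 2, 66.6% ± 0.65 in decile 3 and 70.9% ± 1.8 in decile 4. From decile 5 to decile 9, which by mean level runs from 20.3 to 117 TPM, it lay between 74.5% and 77.7%. The SDs in that stretch were 0.066 to 2.4 percentage points. In the highest decile the share was 69.3% in each library, below decile 9, at 77.1% ± 1.3. Ranked by mean level, the highest decile held 128 ribosomal, respiratory, histone and mitochondrial genes, of which 32.8% had a site. Of its other 744 genes 75.5% had one. Between the lowest and the highest quintile (5 equal groups) the share rose from 49.6% to 73.2%, a difference of 23.5 ± 1.0 percentage points. That difference was -2.2 ± 2.3 points among genes of at least 20 TPM, so the direction turned within the spread between libraries.

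**Figure D1:**
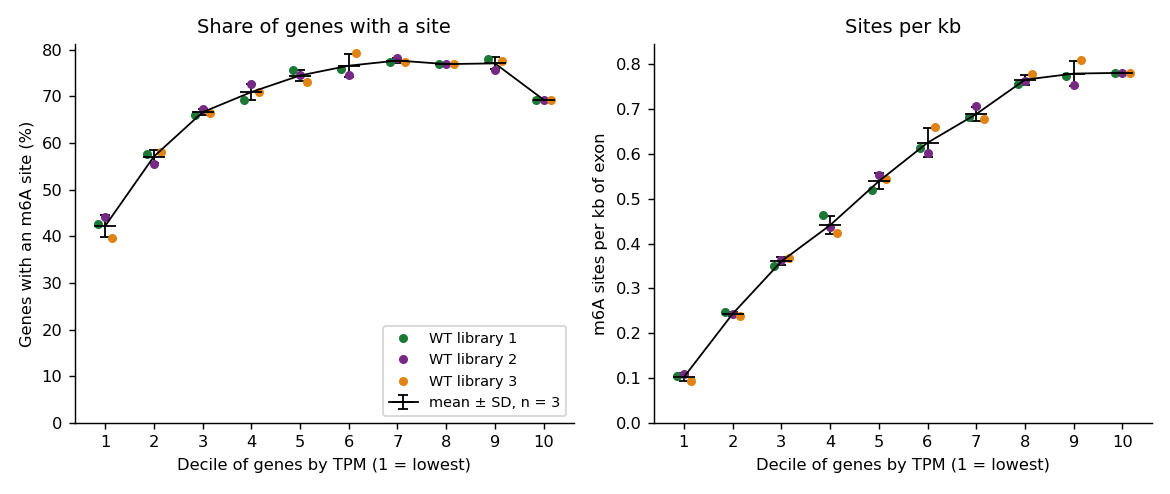
Share of genes with an m6A site (left, %) and sites per kb of merged exon (right) in deciles of the 8719 genes ranked by TPM, with the mean and SD over 3 WT libraries in black and each library as a coloured point. The share is level from decile 5 and drops to 69.3% in the highest, while sites per kb climb from 0.102 to 0.780 in decile 9 and stay at 0.781 in decile 10. TPM and sites per kb are both divided by merged exon length.

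The density of sites did not drop with the share. Per kb of merged exon the genes held 0.102 ± 0.0085 sites in the lowest decile, 0.539 ± 0.017 in decile 5, 0.780 ± 0.028 in decile 9 and 0.781 in the highest. Exons shortened along the same order, from a median of 8241 nt in the lowest decile to 2793 nt in the highest. TPM and sites per kb are both divided by merged exon length, so long merged exons lower both. Ranked by mean level, the 871 genes of the lowest decile held 826 sites and the 872 of the highest held 2294. Counted against the DRACH motifs of the same merged exons, the pattern was the same. There were 0.48 sites per 100 motifs in the lowest decile, 4.1 in decile 9 and 4.0 in the highest. All members together had 0.471 sites per kb and 2.37 sites per 100 DRACH motifs. miCLIP2 reads come from the same RNA pool, and the list gives no coverage per gene, so an unwritten site and a site with too few reads cannot be told apart in the low deciles.

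Exon length separated the groups most clearly among abundant genes. The CPM minimum keeps most short genes out of the low TPM groups, and TPM fell with exon length over all members (Spearman -0.44). Of the shortest exon quintile, 3 genes lay in the lowest abundance quintile and 726 in the highest. The contrasts by quintile are therefore partly set by the choice of genes. Over all members the median merged exon length was 5039 nt with a site and 4394 nt without. In the lowest quintile by TPM the medians were 7117 and 7149 nt, and in the highest quintile 3620 and 1968 nt. The longest exon of the longest transcript went the same way, at 2945 against 2760 nt in the lowest quintile and 1301 against 600 nt in the highest. Exon number did not separate them, with a median of 9 exons in both groups. Among genes of at least 20 TPM, the median exon length of methylated genes was 1.73 times that of unmethylated genes.

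Crossing abundance with exon length, each in quintiles of all members, gave shares from 43.0% to 97.3%, leaving aside the cell of short and rare genes, which the CPM minimum reduced to 3 genes. In the longest quintile, from 8176 nt, the share rose with abundance from 49.3% of 684 genes to 97.3% of 111 genes. In the shortest quintile, up to 2754 nt, it was 51.4% of 212 genes in abundance quintile 2 and 56.6% of 366 in quintile 3. It was 59.4% of 436 in quintile 4 and 56.2% of 726 in the highest. The 95% Wilson intervals of these shares overlap, at 44.7% to 58.1%, 51.4% to 61.5%, 54.7% to 63.9% and 52.6% to 59.8%. Overlap does not show that the shares are equal, and whether they differ was not tested. Over that whole quintile, from which the CPM minimum keeps most low TPM out, the median was 52.0 TPM with a site and 52.2 TPM without. In the longest quintile the medians were 19.5 and 7.14 TPM.

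**Figure D2:**
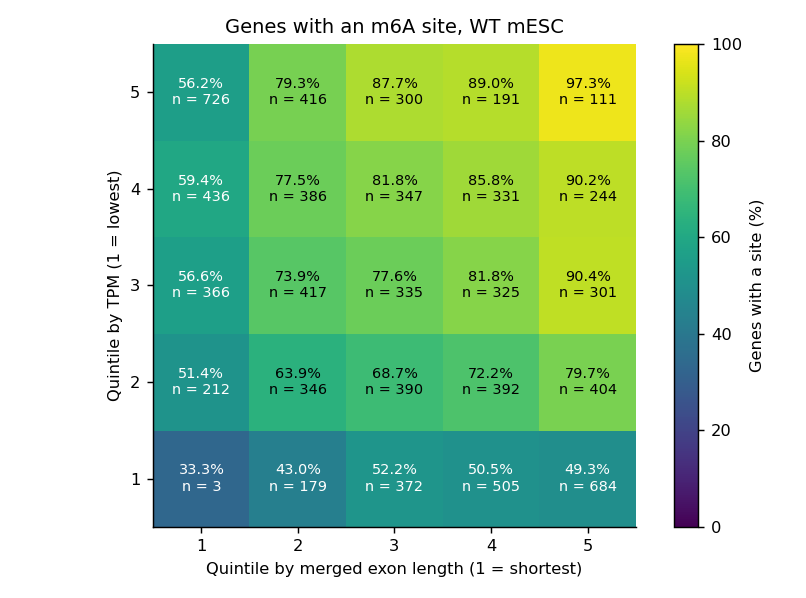
Share of genes with an m6A site by quintile of TPM (vertical, 1 = lowest) and quintile of merged exon length (horizontal, 1 = shortest), each cell with its share and number of genes. Shares climb to the upper right, to 97.3% of 111 genes, and the left column stays between 51.4% and 59.4% above its bottom cell of 3 genes.

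Of the methylated genes 1473 had 1 site, 2712 had 2 to 4, 1355 had 5 to 9 and 465 had 10 or more. These 465 genes, 5.33% of the members, held 25.5% of the 23781 sites. Their median level was 36.7, 45.3 and 36.9 TPM, above that of genes with 1 site in each library, at 24.3, 30.5 and 24.8 TPM. Across the 6005 methylated genes the Spearman correlation of site number with TPM was 0.11, and with exon length 0.20, both given as descriptions, since genes share their library and are not replicates. With TPM it ran from -0.07 in the shortest exon quintile to 0.34 in the longest. With exon length it ran from 0.06 in the lowest abundance quintile to 0.35 in the highest. Among genes of at least 20 TPM the correlation with TPM was -0.031 ± 0.0089 over the libraries.

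The genes with the most sites were long and mostly of moderate abundance. Kmt2d, which encodes a histone H3 lysine methyltransferase, had 39 sites at 27.7, 36.1 and 24.4 TPM, 35 of them in the CDS and 13 in 1 exon of 2952 nt. Tnrc6c, a GW182 protein of miRNA silencing, had 34 sites at 14.6, 24.5 and 15.3 TPM, of which 25 lay in 1 exon of 2601 nt. Mga, a MAX-dimerisation repressor, had 32 sites at 70.1, 96.2 and 64.6 TPM. Library 2 was highest for all 3 of these genes. Rest, the repressor of neuronal genes, had 29 sites at 176, 148 and 183 TPM, 25 of them in its last exon of 5730 nt. Nsd1, another histone H3 lysine methyltransferase, had 29 at 53.6, 65.9 and 62.5 TPM, and the cytoskeletal linker Plec had 29 at 14.9, 20.4 and 17.2 TPM, 24 of them in an exon of 7412 nt. Nynrin, Zcchc14 and Spen followed with 24 each and the proliferation marker Mki67 with 23. Of the 10 genes 7 had most of their sites in a single exon.

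The densest genes were short, and 6 of the 10 consisted of a single exon in their longest transcript. Rpp25l headed them with 8.18 sites per kb, 7 sites in 856 nt, at 29.4, 33.7 and 47.6 TPM. Pigyl had 7.72 sites per kb at 116, 197 and 103 TPM. Cldn4, an epithelial tight junction protein, had 14 sites or 7.71 per kb at 143, 199 and 121 TPM, 8 of them in the 3′ UTR. Sox2, a core pluripotency transcription factor, had 15 sites or 7.29 per kb at 422, 598 and 443 TPM, 9 in the 3′ UTR and 6 in the CDS. Ier2, an immediate early gene, had 10 sites or 6.57 per kb, 8 of them in the 3′ UTR. Epop, a Polycomb-associated protein, had 14 and Sephs2, a selenophosphate synthetase, 13. Except for Rpp25l and Triap1, all of the 10 densest genes lay in the highest abundance quintile. Short merged exons raise both sites per kb and TPM, so the ranks by density and by abundance are not independent.

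**Figure D3:**
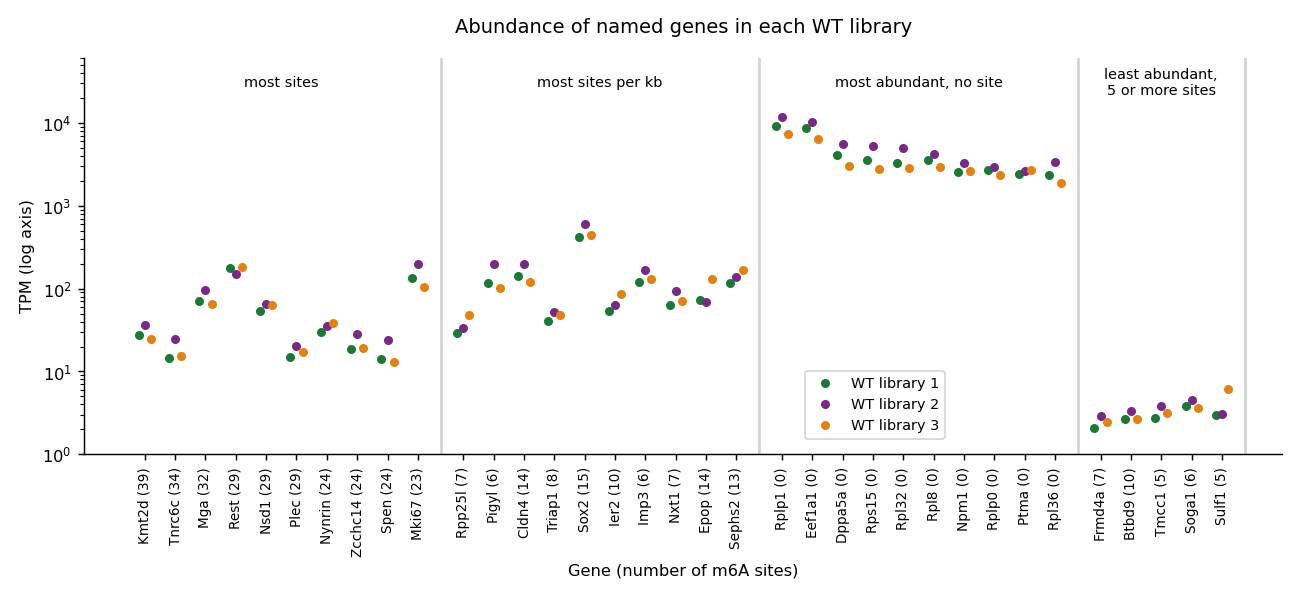
TPM (log axis) of named genes in WT libraries 1, 2 and 3, grouped as genes with the most sites, with the most sites per kb, the most abundant nuclear protein-coding genes without a site and the least abundant genes with 5 or more sites, with the number of sites in parentheses. Genes without a site reach 11671 TPM (Rplp1, library 2) and genes with 5 or more sites go down to 2.10 TPM (Frmd4a, library 1).

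Of the 10 most abundant nuclear protein-coding genes without a site, 7 encode ribosomal proteins or a translation factor, and the others are Dppa5a, Npm1 and Ptma. Rplp1, a stalk protein of the large ribosomal subunit, stood at 9066, 11671 and 7359 TPM with 499 nt of exon and 5 DRACH motifs. Rps15, Rpl32, Rpl8, Rplp0 and Rpl36 of the ribosome were also among the 10, with Dppa5a, an RNA-binding protein of pluripotent cells, at 4088, 5565 and 3024 TPM and the nucleolar chaperone Npm1 at 2555 to 3253 TPM. Eef1a1, the elongation factor that brings tRNA to the ribosome, stood at 8628, 10393 and 6457 TPM. It had 1 site in an exon shared with another annotated gene, which was not given to it. Several of these genes have near-identical copies elsewhere in the genome, where reads that map to more than 1 place are lost. Of the DRACH motifs of Eef1a1, 64.6% recur elsewhere, judged by the 32 nt downstream of the A. Of those of Ptma and Rpl36 80% recur, against 4.62% over all members. For such genes the lack of a site is uncertain, while Rpl8, at 6.67%, is little touched by copies.

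The most abundant gene with a site was mt-Rnr2, the mitochondrial large rRNA, with 1 site at 14169, 6760 and 13964 TPM. Eef2, the elongation factor of ribosomal translocation, had 7 sites at 4257, 5179 and 3182 TPM, and the chaperone Hsp90ab1 had 2 at 4128, 4411 and 4274 TPM. Actb, cytoskeletal actin, had 4 sites at 1496, 1459 and 1981 TPM, 1 of them with a score of 0.960. Rpl4, Rps21 and Rpl23a of the ribosome had 1, 2 and 1 sites. Lars2, the mitochondrial leucyl-tRNA synthetase, had 1 site at 1895, 1084 and 1806 TPM. Its level, like those of mt-Rnr2 and Gm42418, was lowest in library 2, and whether reads of other RNAs enter it was not tested.

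At the other end, Frmd4a had 7 sites at 2.10, 2.90 and 2.47 TPM over 23350 nt of merged exon, with a best score of 0.954. Btbd9 had 10 sites at 2.65, 3.36 and 2.66 TPM, and Sulf1, a heparan sulfate sulfatase, 5 at 2.98, 3.07 and 6.12 TPM. The longest protein-coding genes without a site were also rare per length. Ttn, the giant sarcomere protein, stood at 0.965, 0.851 and 1.77 TPM over 116825 nt and Syne1 at 0.816, 0.799 and 0.650 TPM over 40491 nt. All 10 such genes lay in the lowest abundance quintile. Merged exons count every annotated transcript, used in mESCs or not, which lowers the level per length of genes with many unused exons. In heart, another tissue, 8 of these 10 genes had sites, from 3 in Celf2 to 195 in Ttn, and Hook3 and Dnah8 had none.

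Of the m6A machinery itself 18 of 21 genes, 85.7%, carried 119 sites, or 0.768 per kb against 0.471 over all members. The 95% Wilson interval of that share, 65.4% to 95.02%, holds the 68.9% of all members. The list medians, 36.7 TPM and 6584 nt, fall in abundance quintile 4 and exon length quintile 4. There 85.8% of 331 genes had a site, at 0.687 sites per kb. Whether the m6A genes differ from such genes was not tested. Of the writer complex, Mettl3, its catalytic subunit, had no site at 13.02, 16.6 and 13.8 TPM, and its partner Mettl14 had 3 at 19.1, 22.5 and 16.3 TPM. The other subunits ranged from 1 site in Cbll1 at 19.3, 22.8 and 18.1 TPM to 18 in Rbm15 at 42.2, 40.6 and 27.3 TPM. Between them lay Zc3h13 with 4, Virma with 9, Rbm15b with 12 and Wtap with 15, the last at 47.4, 57.2 and 45.9 TPM. The cytoplasmic readers Ythdf1, Ythdf2 and Ythdf3 had 9, 9 and 11 sites at mean levels of 88.7, 48.8 and 66.3 TPM. The nuclear reader Ythdc1 had 3 and Ythdc2 none, at 9.61, 12.2 and 11.8 TPM. Of the demethylases, Alkbh5 had 9 sites at 116, 99.2 and 106 TPM and Fto had 3 at 20.2, 26.3 and 18.01 TPM. Levels of the readers and of the other subunits were above that of Mettl3 in each library for all those named except Ythdc2 and, in library 1, Rbm15b.

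Pluripotency factors had more sites per kb than all members together. Of 29 such genes 24 had a site, 82.8%, a share whose 95% Wilson interval of 65.5% to 92.4% holds the 68.9% of all members. They had 1.46 sites per kb against 0.471 over all members. The list medians, 81.7 TPM and 3924 nt, fall in abundance quintile 5 and exon length quintile 2. There 79.3% of 416 genes had a site, at 0.836 sites per kb. Whether the pluripotency factors differ from such genes was not tested. Nanog had 7 sites at 702, 922 and 815 TPM, Klf4 had 15 at 151, 204 and 188 TPM, Esrrb had 15 at 204, 297 and 209 TPM and Sall1 had 16 at 74.3, 111 and 100 TPM. Pou5f1, at 750, 820 and 746 TPM, had a single site. Another 5 genes of the list had none. They were Dppa5a, Utf1 at 69.1, 101 and 104 TPM, Dppa3 at 63.5, 105 and 14.1 TPM, Tcf7l1 at 33.7, 43.9 and 43.0 TPM and Lin28b at 4.23, 5.12 and 5.56 TPM. Dppa3 differed most between libraries, being lowest in library 3.

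Signalling ligands, receptors and inhibitors had the highest share of the lists, with a site in 31 of 32 genes, 96.9%. The 95% Wilson interval of that share, 84.3% to 99.4%, lies above the 68.9% of all members. The interval covers counting error only and is no test, since the gene lists were chosen with earlier results of these data known. Per kb they had 0.944 sites against 0.471 over all members. The list medians, 33.1 TPM and 6089 nt, fall in abundance quintile 3 and exon length quintile 4, where 81.8% of 325 genes had a site. In the longest quintile at that abundance it was 90.4% of 301 genes. Whether the list differs from such genes was not tested. Fgf4, the autocrine growth factor of mESCs, had 19 sites at 291, 355 and 240 TPM, 17 of them in the 3′ UTR. The Wnt receptors Fzd5 and Fzd7 had 23 and 17 sites at mean levels of 37.7 and 33.6 TPM. Lifr, the LIF receptor subunit, had 13 at 38.4, 45.3 and 36.7 TPM and Socs3, the feedback inhibitor of its pathway, 11 at 167, 165 and 179 TPM. Nodal, a TGF-β family ligand, had 9 and its inhibitors Lefty1 and Lefty2 had 1 and 2. Bmpr2, a BMP receptor, was the gene without a site, at 4.25, 4.82 and 4.07 TPM over 17983 nt. Immediate early genes, few at this minimum, had the highest density, with 40 sites in 7 genes or 2.12 per kb. Dusp1 had 10 sites, Klf6 had 8 and Ier3 had none.

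Chromatin regulators were listed in separate groups. A site was found in 19 of 20 histone methyltransferases, 18 of 20 Polycomb proteins and 17 of 23 chromatin remodellers. The last share, 73.9%, is near the 68.9% of all members. The 95% Wilson intervals overlap, at 76.4% to 99.1%, 69.9% to 97.2% and 53.5% to 87.5%. In the cells of abundance and exon length quintile that hold the list medians, 90.4%, 81.8% and 90.2% of genes had a site. Whether the groups differ from such genes or from each other was not tested. Ezh2, the H3 lysine methyltransferase of Polycomb, had 1 site at 95.8, 103 and 94.2 TPM and its partner Suz12 had 7 at 211, 270 and 187 TPM. Setd1a was the methyltransferase without a site of its own, and all 10 sites in its exons were shared with another annotated gene. Rybp had none at 53.2, 61.7 and 54.1 TPM, with 74.5% of its DRACH motifs recurring elsewhere. Of cyclins and CDKs 21 of 28 had a site, and Cdk4 had none at 212, 234 and 288 TPM. Of 196 Zfp zinc finger genes 128 had a site, 65.3%, close to the 68.9% of all members.

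Gene groups of the basic cell machinery were abundant, short and seldom methylated. A site was found in 25 of 76 cytosolic ribosomal protein genes, 32.9%, at a list median of 828 TPM and 1806 nt, and in 22 of 71 nuclear-encoded respiratory chain subunits, 31.0%, at 151 TPM and 1675 nt. The share was 56.2% over the 726 members that are both in the shortest and the most abundant quintile, among them 57 of the ribosomal and 51 of the respiratory genes. For the ribosomal genes 20.6% of DRACH motifs recur elsewhere, but for the respiratory genes only 7.67%. Atp5b, a catalytic subunit of ATP synthase, had 3 sites at a mean of 1212 TPM, while the cytochrome oxidase subunits Cox8a and Cox4i1 had none at 836, 1181 and 683 TPM and at 625, 837 and 643 TPM. Core snRNP proteins had a site in 7 of 23 genes, 30.4%, at a median of 72.3 TPM. None of 13 replication-dependent histone genes had one. These mRNAs normally end without a poly(A) tail, so the levels in poly(A)-selected RNA are not their full levels.

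Other house-keeping groups had shares nearer to that of all members. Mitochondrial ribosomal proteins had a site in 50 of 72 genes, 69.4%, translation factors in 29 of 42, SR and hnRNP splicing regulators in 21 of 28 and proteasome subunits in 22 of 34. Psmd7, a lid subunit of the proteasome, had 10 sites at 207, 281 and 278 TPM, and the core subunits Psma6 and Psmb2 had none at 225, 281 and 301 TPM and at 203, 272 and 274 TPM. These subunits were named for being among the most abundant with or without a site, so their like levels follow from that choice. Glycolysis genes had a site in 9 of 16, CCT chaperonin subunits in 5 of 7 and tRNA synthetases in 12 of 19. Per kb, glycolysis, proteasome, CCT, tRNA synthetase and splicing regulator genes had 0.352 to 0.442 sites, below the 0.471 of all members.

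**Figure D4:**
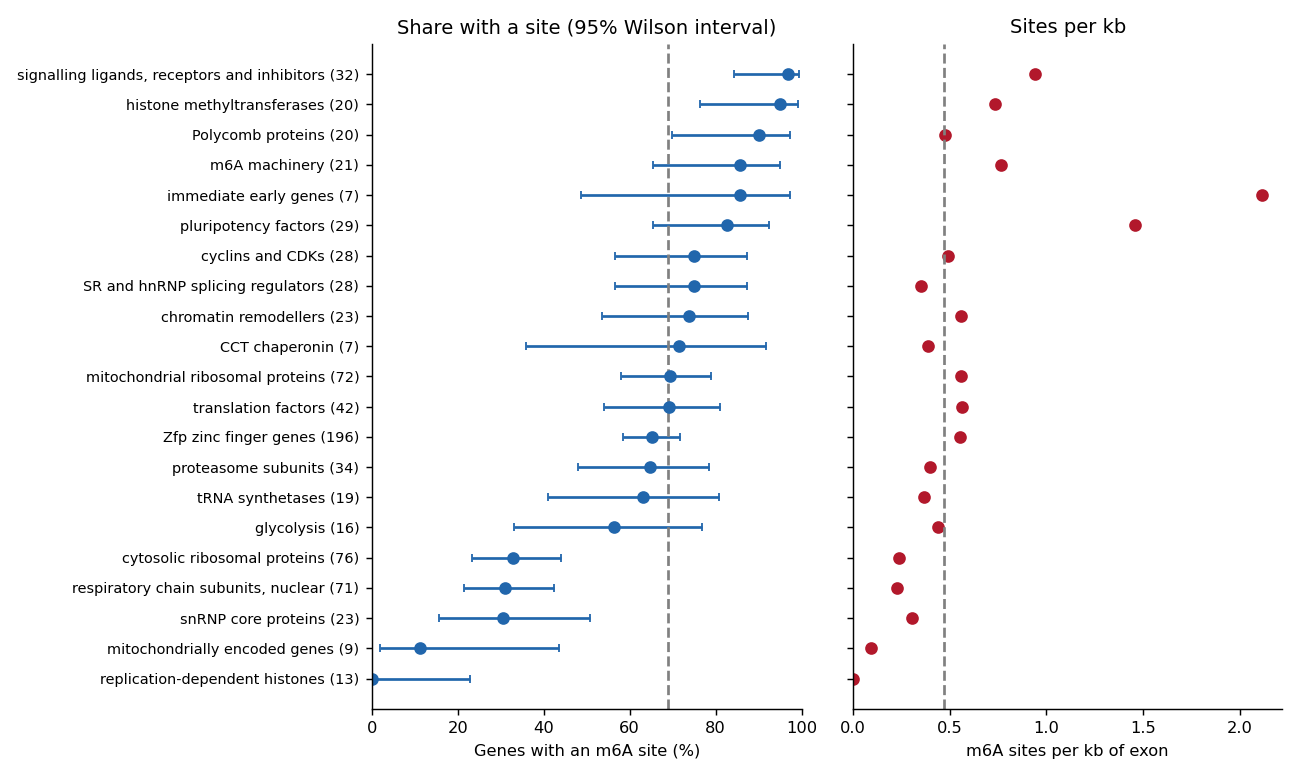
Share of genes with an m6A site with its 95% Wilson interval (left, %) and sites per kb of merged exon (right) in 21 gene lists, with the number of members in parentheses and the value over all members as a dashed line (68.9% and 0.471). Signalling genes, histone methyltransferases and Polycomb proteins lie highest in share, immediate early genes and pluripotency factors in density, and ribosomal, respiratory, snRNP, mitochondrially encoded and histone genes lie lowest in both.

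Scores rose with abundance up to decile 9 by a small amount. The median m6Aboost score of sites was 0.718 ± 0.0012 in the lowest abundance quintile (SD, n = 3 libraries), 0.747 in quintile 3 and 0.761 ± 0.0015 in the highest, a difference of 0.043 ± 0.0023. It was 0.0131 among genes of at least 20 TPM and 0.00755 without the CPM minimum. From decile 9 to decile 10 the median fell from 0.766 ± 0.0032 to 0.754 ± 0.0017. The quartiles, 0.621 to 0.807 in the lowest and 0.649 to 0.855 in the highest quintile, overlapped widely. At GGACT, the most frequent pentamer, the medians were 0.773 ± 0.0020 and 0.823 ± 0.0015, so the rise was also present with the pentamer held fixed. GGACT made up 23.7% of sites in the lowest and 22.4% in the highest quintile, and DRACH 94.1% and 92.4%. Over 23781 sites the Spearman correlation of score with TPM was 0.09. The score takes in the truncation reads of a site relative to its gene and its C-to-T reads, whose number depends on depth, and their part in the rise was not tested. Many of the scored sites also belong to the positive set from which the training sites of m6Aboost were drawn. The paper reports the other predicted sites as enriched in genes of low expression. What this adds to the rise was not tested either.

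**Figure D5:**
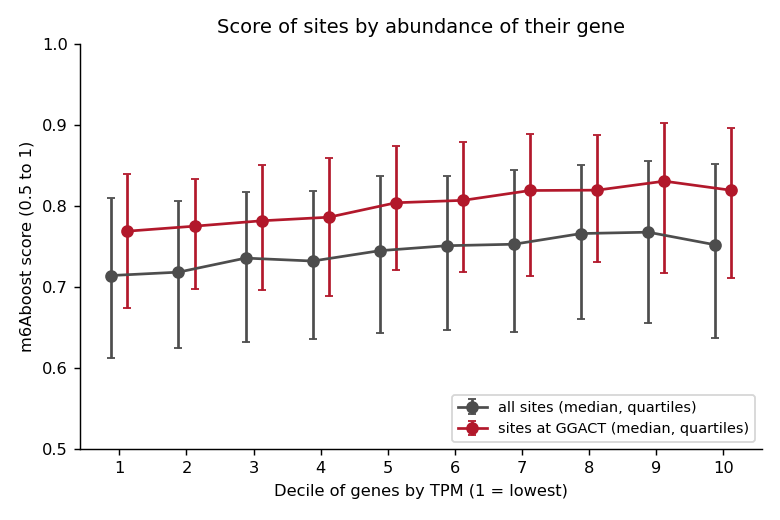
Median m6Aboost score with quartiles of all sites (grey) and of sites at GGACT (red) in deciles of genes ranked by mean TPM. Medians move from 0.714 in the lowest to 0.768 in decile 9 for all sites and from 0.769 to 0.831 at GGACT, and are lower in decile 10, at 0.752 and 0.819, within quartiles that overlap in every decile.

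The site list from 1 µg of mouse heart RNA, a different tissue with 1 library, gave a second view of the unmethylated genes. A heart site was found in 4832 of the 6005 methylated genes, 80.5%, and in 978 of the 2714 unmethylated genes, 36.04%. Among unmethylated genes that share fell with abundance in mESCs, from 52.0% in the lowest quintile to 14.6% in the highest. Among methylated genes it was 85.4% in the lowest and 72.2% in the highest quintile. Median exon length fell between the same quintiles, from 7149 to 1968 nt in unmethylated and from 7117 to 3620 nt in methylated genes. The part of exon length in the fall of these shares was not tested. The heart list carries values on a scale the sources do not state, so only its positions were used, and no score minimum could be matched. No heart RNA levels were used, so gene levels in heart cannot be set beside these shares.

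The choice of genes by 10 CPM can be seen at its edge. Just inside with a site were Gstm4 with 1 site, Cdc42ep5 with 1 and Spic with 2, all with a mean of 10.0 CPM. Just outside were St6galnac3 at 9.98 CPM, Xkr5 at 9.98 CPM and Llph at 9.94 CPM, each with 1 site.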

How the data were processed

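The members and gene lists were chosen with earlier results of these data known. The deposited RNA-seq counts are raw counts per gene, which the authors made with STAR 2.6.1b on GRCm38.p6 and HTSeq 0.12.4 in reverse-stranded mode, GENCODE release M23. The deposited m6Aboost score stands beside each site position. The authors mapped miCLIP2 reads with STAR 2.7.3a, kept unique alignments, removed duplicates with UMI-tools 1.0.0, called peaks with PureCLIP in each replicate, kept those in at least 2 replicates and scored peaks at A. Multi-mapping reads were thus lost for sites, and HTSeq set aside 13.9% to 15.2% of alignments as not unique.

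CPM used all gene counts of a library. Reads that HTSeq set in no gene (18.9% to 22.6% of alignments) stayed out. TPM used merged exon lengths from GENCODE release M21, which matched all member genes. Sites in exons of 1 gene (24880 of 25456) were given to it, counting exons of every annotated transcript, so a retained intron counts as an exon. A further 407 lay in exons of several genes and 169 in none. A DRACH motif was counted as recurring when the 32 nt downstream of its A occur more than once on the GRCm38.p6 chromosomes, on either strand. Site regions and exon numbers are those of the longest coding transcript over the site. No test was run, because 1 pooled site list and WT libraries only leave no groups of samples to compare. Genes are not replicates, and SDs are over 3 replicate libraries and may be partly technical. Wilson intervals cover counting error only. The computations, tested on simulated data, used Python 3.11.15 with pandas 2.3.3 and SciPy 1.17.1, and edgeR 4.0.16 for TMM factors.

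Named genes are, by rule, the 10 with the most sites, the 10 most abundant nuclear protein-coding genes without a site, the 10 most abundant with a site, the 10 with the most sites per kb among genes with at least 5, the 10 longest protein-coding without a site, the 5 least abundant with at least 5 sites, the 2 most abundant with and without a site in each gene list, 3 on each side of the CPM minimum and the cell type markers. Members of the m6A, pluripotency, signalling and immediate early lists beyond these were picked after their values were seen. A result on long abundant genes without a site is not reported here.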

Additional observations from a re-analysis of the deposited data

Results flagged for a closer look

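Genes below the minimum of 10 CPM, which no comparison uses, still carried 1091 sites in 519 genes, and 390 of these genes lay between 5 and 10 CPM. The median score of their sites was 0.718, against 0.748 for sites of members. Mrm2, a mitochondrial rRNA methyltransferase, and Ier5l had the most, with 11 sites each at means of 7.77 and 5.80 CPM. No control samples enter this count, and how many of these sites are true was not tested.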

How the results depend on the processing

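No paired analysis was possible because the sites are 1 pooled list and no groups of RNA-seq libraries are compared. The values below take in order, where they moved by more than 1 SD over libraries, the share with a site, the difference in share between abundance quintiles, the log2 ratios of median TPM and of exon length, the Spearman correlations of site number with TPM and with exon length, and the difference in median score. The 3 relations with abundance turned only with a minimum of 20 TPM, which gave 73.4%, -2.2 points, -0.0041, 0.79, -0.031, 0.317 and 0.0131. A minimum of 5 CPM gave 62.9%, 39.9 points, 1.17, 0.22, 0.145, 0.202 and 0.0526. A minimum of 20 CPM gave 74.5%, 7.52 points, 0.19, 0.26, 0.0287, 0.206 and 0.0355. With no minimum but 1 count in each library the values were 32.6%, 73.7 points, 4.31, 0.88, 0.169, 0.216 and 0.00755. Sites with a score of at least 0.7 gave 58.5%, 21.9 points, 0.56, 0.21, 0.162, 0.156 and 0.0283. The length of the longest transcript gave 21.7 points, 0.59, 0.25, 0.0808 and 0.264, with share and score within 1 SD. TMM factors moved only the correlation with exon length, to 0.1998. DRACH sites alone moved that to 0.202 and the score difference to 0.0494. Sites in several genes given to each gave 0.21 for the exon length ratio and 0.202 for its correlation, and protein-coding genes alone 0.18 and 0.197. The next 4 settings were chosen after seeing the data. Without ribosomal, respiratory, histone and mitochondrial genes the values were 27.7 points, 0.73, 0.16, 0.121 and 0.193, with share and score within 1 SD. Without genes in which at least 20% of DRACH motifs recur they were 70.5%, 27.9 points, 0.76, 0.12, 0.131, 0.188 and 0.0476. With CPM and TPM scaled to nuclear protein-coding genes they were 66.7%, 29.6 points, 0.85, 0.124, 0.198 and 0.0468, with the exon length ratio within 1 SD. Without genes whose sites all lie in shared exons the exon length ratio was 0.21. Leaving out 1 library gave 68.3% to 69.4%, 22.2 to 25.0 points, 0.63 to 0.67, 0.20 to 0.21, 0.105 to 0.107, 0.1996 to 0.201 and 0.0430 to 0.0441. The exon length relations kept their direction under all 17 settings. The cause of these shifts was not tested, and without coverage per gene the depth behind a missing site is unknown.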

Other observations

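Qser1 had 3 sites and no count in any of the 3 WT libraries, the only gene with sites and no counts. Of the genes below 10 CPM that had sites, 7 were under 1 CPM.

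Most members were protein-coding. Of 45 lincRNA genes among them 21 had a site, 46.7%, at a median of 26.1 TPM. Of 19 processed pseudogenes 2 had one, 10.5%, at a median of 77.4 TPM. Over all members the share was 68.9%. Only unique alignments were kept for sites, so for genes with near-identical copies, such as processed pseudogenes, the lack of a site is uncertain.

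Methylated genes varied slightly less between the WT libraries than unmethylated genes. The median coefficient of variation of TPM over the 3 libraries was 16.1% with a site and 18.9% without. In the highest abundance quintile the values were 14.5% and 18.6%, and in the lowest 17.99% and 20.03%. The share taken by Gm42418 moves all levels of a library together and is part of both values.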
